A study of Mus musculus with 37 samples.

Results

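Skeletal muscle RNA was measured in whole mammary glands through 45 genes chosen by name: the filaments of the sarcomere, the Z disc, the proteins of excitation and calcium, and the enzymes and oxygen store of the muscle fibre. Of the 45 genes, 41 had a probe set that named them alone, out of 12393 genes on the array, and 4 had none (Mybpc1, Mybpc2, Ampd1 and Neb). Where a gene had several probe sets, the brightest on average over the 37 arrays was used. Of the 41, 40 passed the filter on low signals and were tested. Tnni1 did not pass and is described by its values.

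The arrays came from female C57BL/6 mice with no genetic change, 9 weeks old at the start and followed for 6 weeks. CR+EX mice (n = 9) had calorie restriction and a running wheel, CR mice (n = 9) had restriction alone, AL+EX mice (n = 9) ate freely and had a wheel, and AL mice (n = 10) ate freely without one. Restricted mice were on 30% restriction, 70% of the calories of AL mice. The left and right thoracic glands of an animal were pooled, and each animal had 1 array, 37 in all. How far each mouse ran is not given in the sources used here, so the wheel groups are groups of access.

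Skeletal muscle contracts when calcium released from the sarcoplasmic reticulum binds troponin on the thin filament and lets myosin heads pull on actin. Fast and slow fibres build this machinery from different genes: fast fibres use myosins such as Myh4 and the troponins Tnnc2, Tnni2 and Tnnt3, whereas slow fibres use Myh7, Tnnc1, Tnni1 and Tnnt1. The mammary gland has no striated muscle of its own. Its contractile cells are myoepithelium and the smooth muscle of vessels, and the thoracic glands lie over the muscles of the chest and foreleg.

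Signals of mammary tissue were high: Adipoq, an adipocyte hormone, had a median signal of 17214, and Krt18, a keratin of the luminal epithelium, had 3593. Of 10 genes listed for heart muscle, 6 lay below the filter at a signal of 88.7, among them Myh6 (median signal 32.1), Myl7 (15.9) and Tnnt2 (18.9). The 4 that passed it were Mybpc3 (274.6), Nppb (184.4), Myl4 (173.4) and Pln (139.0). The animal numbers form 4 runs with gaps between them, of 8, 11, 10 and 8 arrays. Every run includes glands of each group, and no label calls a run a batch. On 15 arrays, among them all 8 of the fourth run, the mean of the B lymphocyte genes was 8.16 to 10.5 on the log2 scale, against 6.55 to 7.20 on the other 22. Of the 37 arrays, 5 had a Gapdh 3′ to 5′ probe set ratio above 2, which rises where RNA is shortened: AL replicates 1, 2 and 8 and CR+EX replicates 1 and 2.

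AL replicate 1 stood apart in these genes. It held the lowest of the 37 signals in 35 of the 41 muscle genes, its mean over the tested muscle genes other than Car3, Tpm1, Tpm2 and Des was 10.84 on the log2 scale against 11.84 to 13.03 on the other arrays, and the 41 genes made up 2.13% of its total signal against 3.59% to 7.74% elsewhere. Its summed signal of the 18 luminal genes was 41250, the second highest of all arrays. Its Gapdh ratio was 2.74, and the part of RNA quality or of tissue content in its low muscle signal was not tested. The counts, medians and calls that this array moves most are also given without it.

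**Figure D1:**
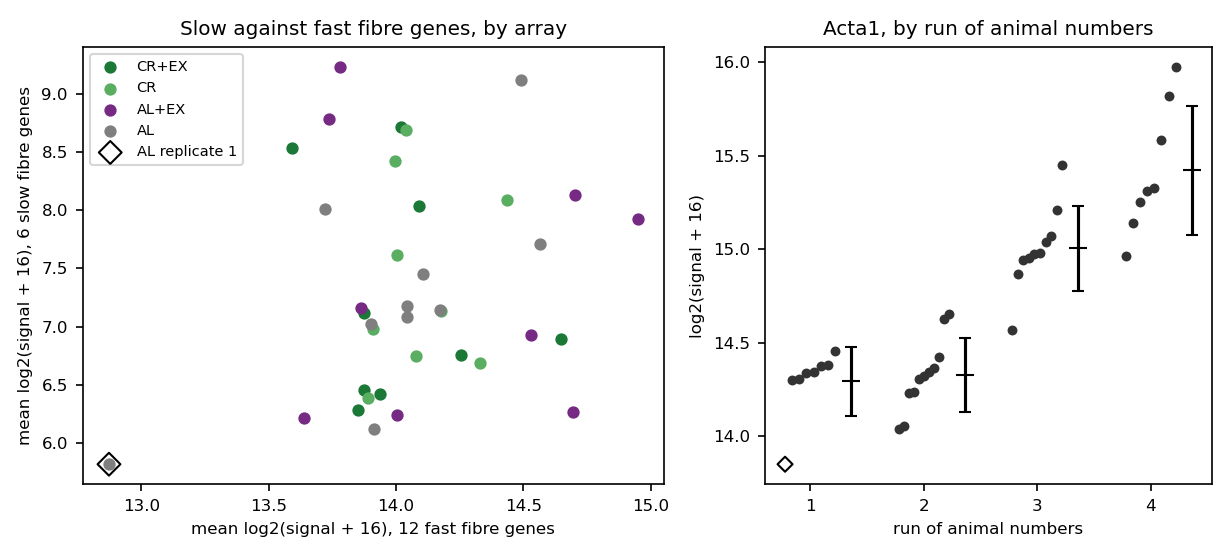
Left, each point is 1 array, with the mean log2(signal + 16) of the 12 fast fibre genes on the x axis and of the 6 slow fibre genes on the y axis. High slow fibre means, up to 9.23, occur in all 4 groups, and AL replicate 1 (diamond) is lowest on both axes. Right, Acta1 on the same log2 scale in the 4 runs of animal numbers, with mean and SD: the run means are 14.29, 14.33, 15.01 and 15.42.

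The 4 genes with the widest range over the arrays among those with a promoter sequence were Myh7, Tnni1 and Tnnt1, 3 slow fibre genes, and Mybph, the tested member that differed most with diet. Trdn had a wide range too, 4.10 on the log2 scale. Among these genes only Mybph was called in a contrast of groups, and Tnni1 was not tested. The promoters are shown because of the wide ranges. They run from 250 bases before to 50 bases after the gene's start, 5′ to 3′ on the gene's strand, from RefSeq on GRCm38.p6. Capitals mark E boxes (CANNTG, bound by myogenic factors such as MyoD), MCAT elements (CATTCC) and TATAAA, searched on both strands.
Myh7, chr14:54994577-54994876, minus strand: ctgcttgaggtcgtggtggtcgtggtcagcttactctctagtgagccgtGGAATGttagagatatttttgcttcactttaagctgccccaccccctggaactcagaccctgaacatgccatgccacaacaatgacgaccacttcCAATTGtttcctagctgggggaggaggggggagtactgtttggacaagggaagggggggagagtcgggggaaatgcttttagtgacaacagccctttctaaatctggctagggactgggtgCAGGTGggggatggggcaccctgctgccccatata
Tnni1, chr1:135799171-135799470, plus strand: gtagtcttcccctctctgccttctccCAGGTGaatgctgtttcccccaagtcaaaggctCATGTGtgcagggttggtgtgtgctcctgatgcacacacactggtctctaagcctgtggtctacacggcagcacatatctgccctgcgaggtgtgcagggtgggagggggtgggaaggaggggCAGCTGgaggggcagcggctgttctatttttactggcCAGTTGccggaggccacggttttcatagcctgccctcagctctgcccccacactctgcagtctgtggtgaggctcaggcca
Tnnt1, chr7:4515926-4516225, minus strand: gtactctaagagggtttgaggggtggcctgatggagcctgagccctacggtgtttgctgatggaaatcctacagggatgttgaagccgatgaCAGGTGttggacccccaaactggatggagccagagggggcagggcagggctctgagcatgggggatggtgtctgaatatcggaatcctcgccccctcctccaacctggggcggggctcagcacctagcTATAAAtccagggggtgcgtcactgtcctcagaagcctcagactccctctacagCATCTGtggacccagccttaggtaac
Mybph, chr1:134193198-134193497, plus strand: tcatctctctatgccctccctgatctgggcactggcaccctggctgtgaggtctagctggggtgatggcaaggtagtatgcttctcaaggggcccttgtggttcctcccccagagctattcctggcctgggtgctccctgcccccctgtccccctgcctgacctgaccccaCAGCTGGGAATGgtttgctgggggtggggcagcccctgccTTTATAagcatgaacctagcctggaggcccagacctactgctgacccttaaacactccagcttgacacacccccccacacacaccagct
Myh7 held 2 E boxes and 1 MCAT element, Tnni1 held 4 E boxes, Tnnt1 held 2 E boxes and 1 TATAAA, and Mybph held 1 of each, with the E box and the MCAT element side by side. A promoter was listed for 34 of the 45 genes. Of these 34, 28 held an E box and 14 an MCAT element (41.2%), against 72.3% and 14.7% of all 32851 promoters. TATAAA was found in 8 of 34, against 13.6% of all promoters. A MEF2 box was found in 1 and a CArG box in 4 of the 34, against 0.6% and 1.6% of all promoters. These are matches of letters only.

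Among thick filament genes, Myl1, an alkali light chain of fast fibres, had lowest, median and highest signals of 16246, 21788 and 38752 in CR+EX glands, 18431, 24124 and 35642 in CR glands, 16723, 21686 and 54508 in AL+EX glands and 13913, 23753 and 33998 in AL glands. The groups overlapped over most of their range. Myh4, the heavy chain of the fastest fibres, had medians of 18822 in CR+EX, 20694 in CR, 19003 in AL+EX and 24222 in AL glands, with 12399 as the lowest signal and 43332 as the highest, both in AL glands. Myh1 was read from a probe set that can also bind near-identical copies, so its signal (5856 to 29554) may hold part of Myh2 and Myh4. Myh2, a heavy chain of oxidative fast fibres, ran from 1768 in AL replicate 1 to 21231 in AL+EX replicate 8.

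Of the slow members of the thick filament, Myh7 had the widest range on the log2 scale (4.21), and the ranges of Myl2 (3.55) and Myl3 (3.53) were close to that of the fast gene Myh2 (3.57). Myh7, the slow heavy chain, had lowest, median and highest signals of 26.7, 44.3 and 477 in CR+EX glands, 19.7, 111.7 and 434.6 in CR glands, 18.3, 110.4 and 620 in AL+EX glands and 26.8, 150.3 and 602.3 in AL glands. Each group thus held both glands with little Myh7 signal and glands with clear signal. Myl2, the slow regulatory light chain, ran from 95.3 to 1285, and Myl3, the slow essential light chain, from 31.1 to 529. Another 2 probe sets pair Myh7 with the heart gene Myh6 and were not used.

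On the thin filament, Acta1, the actin of skeletal muscle, had lowest, median and highest signals of 16798, 24258 and 49050 in CR+EX, 20163, 29852 and 38963 in CR, 17010, 20807 and 64425 in AL+EX and 14752, 29048 and 41166 in AL glands. Tnni1, the inhibitory troponin of slow fibres, had medians of 31.0 in CR+EX, 36.5 in CR, 43.7 in AL+EX and 47.9 in AL glands, all below the filter, yet reached 205.6, 192.4, 417.7 and 310.0 in single glands of those groups. Tnnc1, the slow troponin C, had medians of 160.2 in CR+EX, 157.1 in CR, 152.0 in AL+EX and 118.4 in AL glands and a highest signal of 717.4, in AL+EX replicate 3. Tnnt1, the slow troponin T, ran from 11.6 to 411.9. The fast troponins had narrower ranges on the log2 scale: 1.76 for Tnnc2, 1.80 for Tnnt3 and 2.27 for Tnni2, against 3.24 for Tnnc1, 3.95 for Tnnt1 and 4.00 for Tnni1. A dim probe set also carries more array noise on this scale, and its part in the wider ranges was not tested. Tnnc2, Tnnt3 and Tnni2 ranked 14, 38 and 7 by mean signal among all genes. The part of the top of the signal scale in their narrower ranges was not tested either.

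Of the Z disc genes, Actn3, the actinin of fast fibres, had a median signal of 15950 over all arrays and a range from 4713 to 27531. Ldb3, a PDZ protein that binds actinin, had the widest range of the Z disc genes, from 1488 in AL replicate 1 to 12235 in AL+EX replicate 7. Of the calcium genes, Atp2a1, the calcium pump of the fast fibre reticulum, had medians of 29490 in CR+EX, 32113 in CR, 26288 in AL+EX and 33906 in AL glands. Trdn, triadin, which anchors calsequestrin to the calcium release channel, ran from 1263 in AL replicate 1 to 21844 in AL+EX replicate 7. Of the energy genes, Ckm, the muscle creatine kinase, had medians of 24274 in CR+EX, 24856 in CR, 23745 in AL+EX and 23074 in AL glands, within a range of 10383 to 52647. Car3, a carbonic anhydrase that adipocytes also make in quantity, had medians of 22581, 29861, 21429 and 29455 in the same order of groups.

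Which run an animal came from went with the brightest members. The run of animal numbers held 80.4% of the variance of Acta1, 77.2% of Car3, 74.7% of Tnnc2, 73.8% of Atp2a1, 73.4% of Myh4 and 59.6% of Ckm, and 1.74% of Art1, 1.95% of Tnnt1 and 6.37% of Myh7. The group held 1.96% of the variance of Acta1 and 7.42% of Ckm. Acta1 averaged 14.29 ± 0.19, 14.33 ± 0.20, 15.01 ± 0.23 and 15.42 ± 0.34 on the log2 scale in runs 1 to 4 (SD, n = 8, 11, 10 and 8). The bright end of the arrays moved the same way: the 99.5th percentile of all probe sets that measure none of these muscle genes had run medians of 13.45, 13.46, 13.78 and 13.81. Within runs, the 12 members with a mean of 14 or more correlated with that percentile at r = 0.13 to 0.46 over 37 arrays centred on their run. Over the 41 members the median share of variance held by the run was 21.6%, and over all genes it was 22.8%.

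Slow and most fast fibre genes varied apart from each other, with the fast gene Myh2 as an exception. Over the 37 arrays the 15 pairs of slow genes had a median Pearson r of 0.735 (range 0.498 to 0.929) and the 66 pairs of fast genes 0.761, whereas the 72 pairs of a fast and a slow gene had 0.109 (range -0.26 to 0.677). With each gene centred on its run the medians were 0.735, 0.703 and 0.127. After quantile normalization they were 0.729, 0.618 and 0.32, so the gap between fast and slow was smaller there. All values of a pair come from the same arrays, and bright genes also share the bright end described above.

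**Figure D2:**
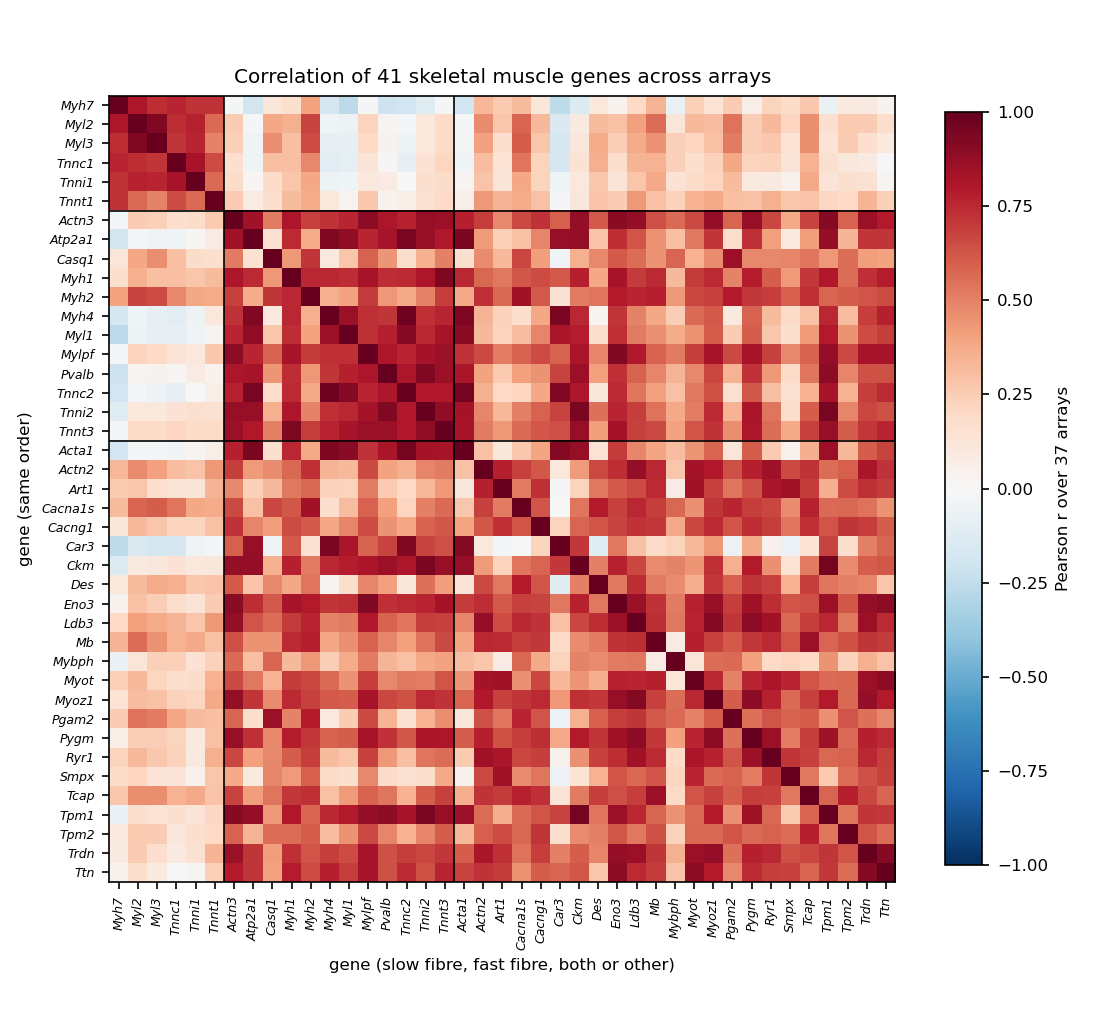
Pearson r over the 37 arrays between each pair of the 41 genes, from -1 (blue) to 1 (red), with slow fibre genes first, fast fibre genes next and all others last, split by black lines. The 6 slow genes form a block of their own at the upper left. Most fast genes correlate with most of the other members but little with the slow block. The fast gene Myh2 is an exception, at r = 0.677 with Myl2 and 0.654 with Myl3.

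Ckm, the common marker of muscle, was set against each of the 40 other measured members. The correlation had an adjusted p below 0.05 for 32 of 40 (two-sided permutation test with 100000 resamples, Benjamini-Hochberg over the 40), and for 21 of 40 by Spearman's rho. It was strongest for Tpm1 (r = 0.954, rho = 0.922) and Tnni2 (r = 0.939, rho = 0.913), each with p = 1e-05, the smallest these permutations can give, and adjusted p = 2.7e-05. None of the 6 slow genes passed, with r from -0.138 for Myh7 to 0.145 for Tnnc1. Since the runs lie apart for the brightest genes, the values within runs count here: r was 0.899 for Tpm1, 0.884 for Tnni2 and 0.801 for Actn3 after centring on the run, and 33 of 40 passed. Without AL+EX replicate 9 and AL replicate 1, the 2 arrays farthest from the median of Ckm, Tpm1 was at r = 0.942 and Tnni2 at 0.916, but the count fell to 20 of 40. For Ckm, and for Tnnc1 and Mb below, the share of all genes that would pass was not computed. The counts of members that correlate thus have no background beside them.

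Tnnc1 was used in the same way as a slow anchor, chosen with the data in view. It correlated with Tnni1 (r = 0.828, rho = 0.757), Myh7 (r = 0.761, rho = 0.687), Myl2 (r = 0.735, rho = 0.698) and Myl3 (r = 0.718, rho = 0.698), all with permutation p = 1e-05 and adjusted p = 0.0001, the adjustment running over 40 relations. Tnnt1 (r = 0.652, rho = 0.700), Cacna1s (r = 0.533, rho = 0.550), the voltage sensor of the muscle membrane, and Myh2 (r = 0.482, rho = 0.456) also passed, which made 7 of 40. Without AL 9 and AL+EX 3, the 2 arrays farthest from its median, r was 0.774 for Tnni1 and 0.697 for Myh7, and within runs it was 0.825 and 0.756. Glands high in slow fibre genes were found in every group: the highest slow mean was 8.71 in CR+EX, 8.69 in CR, 9.23 in AL+EX and 9.12 in AL glands, and the group held 0.86% of its variance.

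Mb, the oxygen store myoglobin, correlated with 37 of 40 members (28 by Spearman's rho), and with 24 of 40 without AL+EX 8 and AL 1. Its nearest members were Tcap (r = 0.852, rho = 0.909), Myh2 (r = 0.778, rho = 0.750), Myot (r = 0.775, rho = 0.755) and Actn2, an actinin of the Z disc (r = 0.757, rho = 0.743), each with permutation p = 1e-05 and adjusted p = 2.9e-05. Their r within runs was 0.852, 0.752, 0.821 and 0.787, and without the 2 farthest arrays 0.809, 0.681, 0.714 and 0.747. Mybph did not go with Mb (r = 0.079, rho = -0.081, permutation p = 0.64). Its r with Ckm was 0.498 (rho = 0.412, permutation p = 0.0019, adjusted p = 0.0032), 0.451 within runs and 0.371 without the 2 farthest arrays.

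Restriction was compared first over both wheel states, CR and CR+EX against AL and AL+EX. Mybph, myosin binding protein H of the thick filament, rose 1.78-fold with restriction (log2 difference 0.83 ± 0.23 SE, limma adjusted p = 0.02), and it was the only one of the 40 tested members to pass. Over all 9295 genes tested, 8.75% passed in this contrast. The members had 14 positive and 26 negative differences with a median of -0.07, against a median of -0.02 over all genes. Without AL replicate 1 the median of the members was -0.14. An unadjusted p below 0.05 was found for 5 of the 40 members (23.9% of all genes). In these bulk samples fewer fibres and less RNA per fibre cannot be told apart.

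Mybph signal had a lowest, median and highest value of 560.5, 1034 and 2261 in CR+EX glands, 842.5, 1486 and 2333 in CR glands, 218.4, 995.3 and 2023 in AL+EX glands and 141.5, 579.5 and 1189 in AL glands. CR glands were high: 9 of 9 lay above the median of AL glands and 7 of 9 above the highest AL gland. CR against AL gave a rise of 1.39 ± 0.32 on the log2 scale (2.62-fold, adjusted p = 0.0459), again for 1 of 40 members, with 0.441% of all genes called. The difference was 2.25, 1.63, 0.96 and 1.11 in runs 1 to 4, and with the run as a block the adjusted p was 0.00318. The call did not hold without AL replicate 1 (1.19, adjusted p = 0.062), and it was lost in 15 of the 37 fits that left out 1 array. It was also lost without the 5 arrays with a high Gapdh ratio (1.09, adjusted p = 0.16) and when the 15 arrays high in B cell genes were left out (1.70, adjusted p = 0.11).

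With wheels in both arms, CR+EX against AL+EX, Mybph differed by 0.27 ± 0.33 (adjusted p = 0.766). The interaction, which tests whether the diet difference depended on the wheel, was -1.12 ± 0.46 for Mybph (adjusted p = 1.0), and -0.92 without AL replicate 1. No gene of the whole array was called in the interaction (0% of 9295), and 4 members and 3.17% of all genes had an unadjusted p below 0.05. CR+EX against AL gave 1.03 ± 0.32 for Mybph (adjusted p = 0.12, and 0.0259 with the run as a block, and 0.83 with adjusted p = 0.194 without AL replicate 1), with 0.624% of all genes called and 0 of the 40 members. Mybph has 1 probe set on the array, so no second one could be set beside it.

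**Figure D3:**
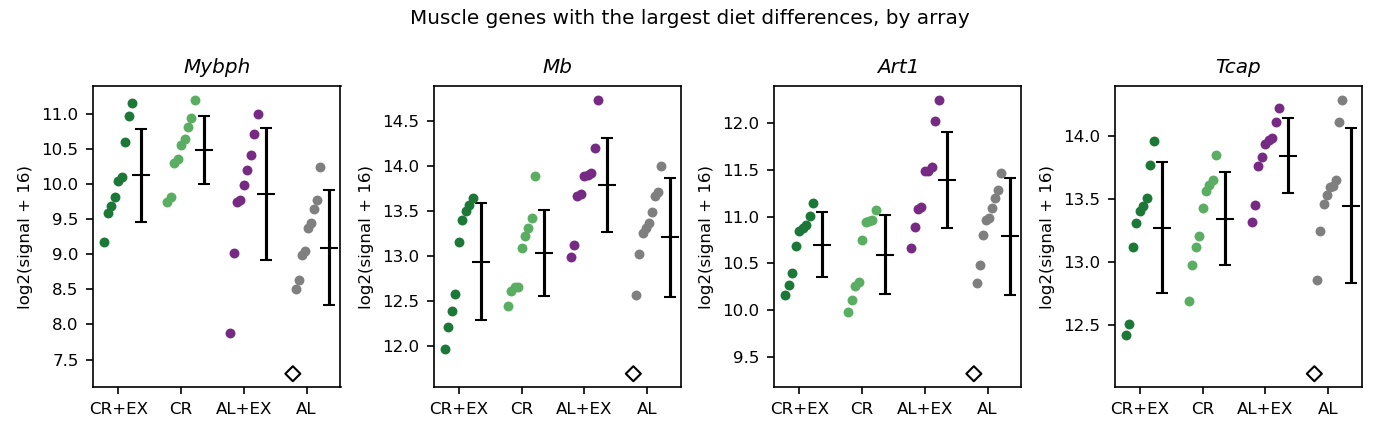
Each point is 1 gland, on the log2(signal + 16) scale, for the 4 members with the largest differences by diet, with mean and SD beside each group and AL replicate 1 as a diamond. Mybph was highest in CR glands and lowest in AL glands, while Mb, Art1 and Tcap were highest in AL+EX glands.

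The largest negative differences with restriction were in Mb (-0.51 ± 0.18, adjusted p = 0.0708), Art1 (-0.44 ± 0.16, adjusted p = 0.0658), Tcap (-0.34 ± 0.15, adjusted p = 0.155) and Trdn (-0.29 ± 0.20, adjusted p = 0.418). None passed. Casq1, the calcium buffer of the fast fibre reticulum, had the next largest positive difference (0.30 ± 0.14, adjusted p = 0.193), followed by Pgam2, the muscle phosphoglycerate mutase (0.25 ± 0.17), and Myl3 (0.17 ± 0.32). With the run as a block Mb (adjusted p = 0.0338) and Art1 (adjusted p = 0.0433) passed beside Mybph (adjusted p = 0.00232), which made 3 members. Without AL replicate 1 there were 4: Mybph, Mb (-0.60, adjusted p = 0.0195), Art1 (-0.53, adjusted p = 0.011) and Tcap (-0.41, adjusted p = 0.0442). With the 15 arrays high in B cell genes left out there was none, and Mybph stood at 1.03 (adjusted p = 0.0707). The share of all genes called was 8.75% in the main fit and is not given here for these alternatives. Their counts are therefore not results about the members in particular.

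For Mb the larger diet difference was the one between the wheel groups. Mb signal had a lowest, median and highest value of 3970, 9067 and 12778 in CR+EX glands, 5564, 8688 and 15107 in CR glands, 8129, 15074 and 27191 in AL+EX glands and 3291, 10332 and 16278 in AL glands. No CR+EX gland reached the median of AL+EX glands, and 4 of 9 lay below the lowest of them. CR+EX against AL+EX was -0.85 ± 0.26 (adjusted p = 0.0838), and 0.0343 with the run as a block. The values by run were 0.13, -0.97, -1.74 and -0.78, so the first run did not share the direction. CR against AL was -0.18 ± 0.26 (adjusted p = 0.806). A second Mb probe set, with a mean of 5.96 on the log2 scale, lay below the filter at 6.71. That probe set gave 0.15 in CR+EX against AL+EX, and its r with the one used was 0.025. The interaction for Mb did not pass (-0.68 ± 0.37, adjusted p = 1.0).

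Art1, a muscle surface enzyme that adds ADP-ribose to proteins, had medians of 1833 in CR+EX, 1711 in CR, 2866 in AL+EX and 2001 in AL glands. No CR+EX gland reached the AL+EX median, and 3 of 9 lay below the lowest AL+EX gland. CR+EX against AL+EX was -0.69 ± 0.22 (adjusted p = 0.10), negative in all 4 runs (-0.22, -0.48, -1.86 and -0.31). A second Art1 probe set gave -0.65 in the same contrast, and its r with the one used was 0.624. Over both wheel states it gave -0.24, against -0.44 for the one used. In CR against AL the signs differed, at 0.17 for the second and -0.20 for the one used. Tcap, telethonin, which caps titin at the Z disc, had medians of 10835 in CR+EX, 11015 in CR, 15640 in AL+EX and 12097 in AL glands, and CR+EX against AL+EX was -0.57 ± 0.21 (adjusted p = 0.171), negative in all 4 runs.

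In CR+EX against AL+EX, 37 of 40 members had a negative difference and 3 a positive one (Mybph, Casq1 and Myl3), with a median of -0.26 against -0.02 over all genes. None passed, with 1.65% of all genes called, and an unadjusted p below 0.05 was found for 5 of 40 members and 15.2% of all genes. The 12 fast genes had a median of -0.22 and the 5 tested slow genes -0.08. Genes counted on the same arrays are not independent of each other, so the count of signs carries no test. In CR against AL the signs were 28 positive and 12 negative, with a median of 0.11 that was -0.02 without AL replicate 1.

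The wheel was compared in AL+EX against AL, in CR+EX against CR and over both diets, and no member passed in any of the 3, with 0% of all genes called in each. In AL+EX against AL, 38 of 40 members had a positive difference, with a median of 0.32 against -0.02 over all genes, and 10 members had an unadjusted p below 0.05, against 6.46% of all genes. The smallest adjusted p was 0.641. The largest differences were in Mybph (0.76 ± 0.32), Myh2 (0.63 ± 0.30), Cacna1s (0.62 ± 0.22), Des (0.61 ± 0.24) and Art1 (0.60 ± 0.22). AL replicate 1 was the lowest AL gland in each of these genes, and the differences and the count of 10 include it. Without AL replicate 1 the median was 0.18. The 12 fast genes had differences of 0.04 to 0.63, and the 5 tested slow genes of -0.20 (Myh7) to 0.42 (Tnnc1).

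Under restriction, CR+EX against CR had 31 negative and 9 positive differences with a median of -0.06, which was -0.14 without CR+EX replicate 8 and -0.24 with the arrays high in B cell genes left out, and no member and 0.893% of all genes had an unadjusted p below 0.05. Over both diets the median was 0.14, which was 0.069 without AL replicate 1 and 0.018 with the arrays high in B cell genes left out, with 2 members and 2.86% of all genes at an unadjusted p below 0.05. The largest positive values there were in Art1 (0.36 ± 0.16), Smpx, a small protein of the muscle cytoskeleton (0.34 ± 0.15), Pgam2 (0.26 ± 0.17) and Mb (0.24 ± 0.18). The largest negative ones were in Myl2 (-0.14 ± 0.32), Tnnt1 (-0.09 ± 0.34), Myh7 (-0.08 ± 0.43) and Myl3 (-0.06 ± 0.32), all with standard errors larger than the difference.

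**Figure D4:**
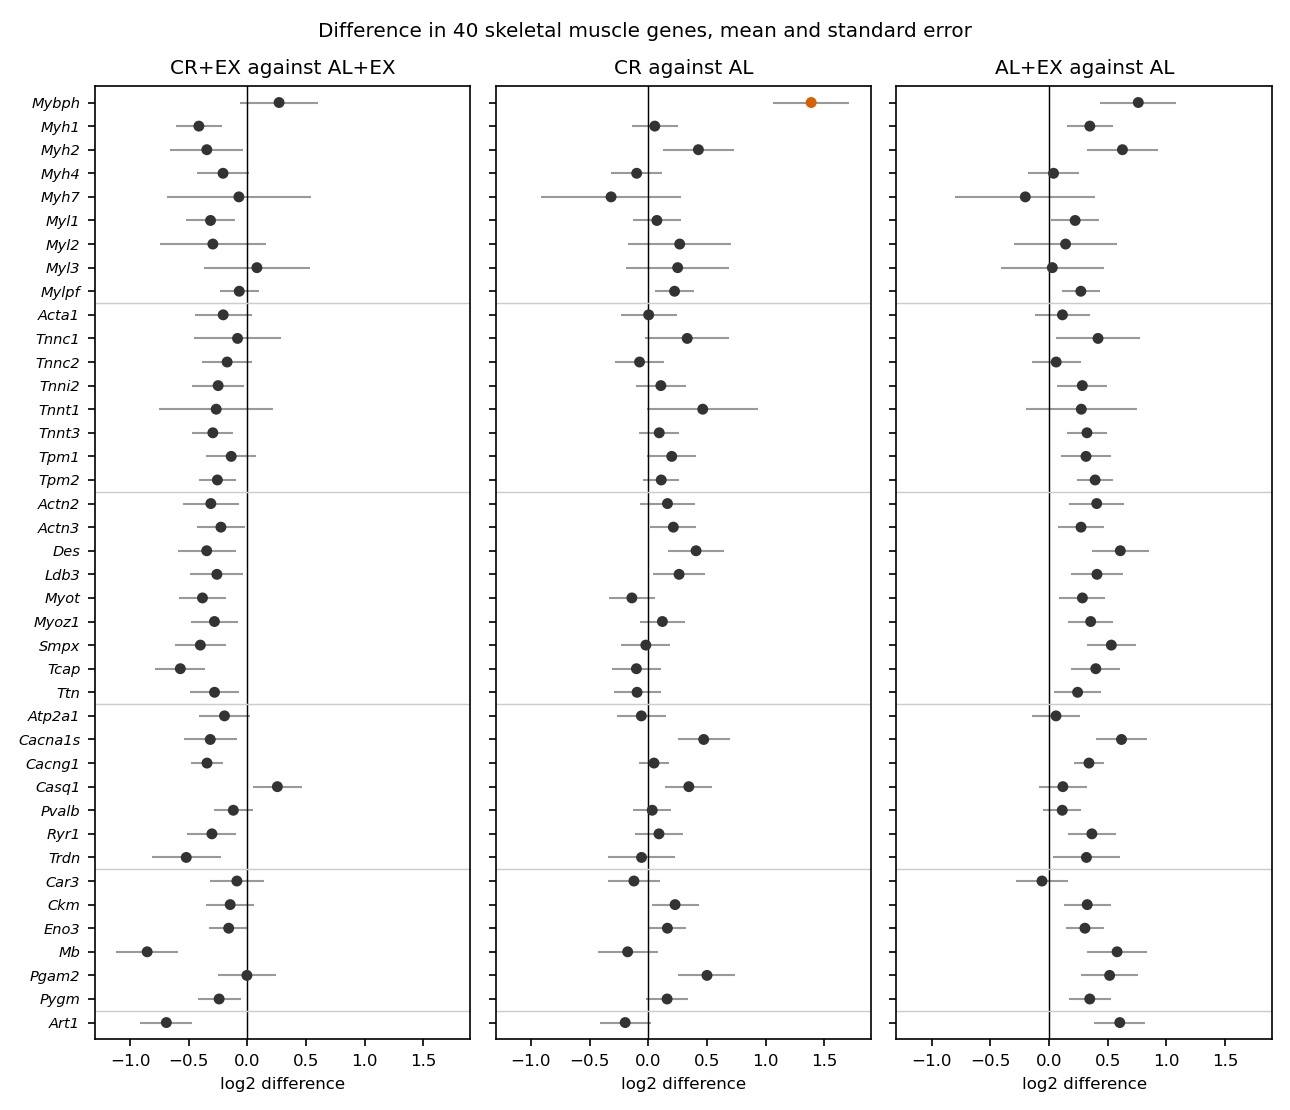
Log2 difference with its standard error for the 40 tested members, ordered by role from thick filament to energy genes, in CR+EX against AL+EX, CR against AL and AL+EX against AL. Orange marks an adjusted p below 0.05, which only Mybph in CR against AL has (1.39), and 37 of 40 points lie left of 0 in the first panel and 38 of 40 right of 0 in the third.

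None of the best known muscle markers passed in any contrast. Acta1, Ckm, Tnnc2 and Myh4 ranked 5, 8, 14 and 15 by mean signal among all genes, at the bright end that moved with the run. The highest signal on an array had run medians of 24475, 26521, 40967 and 48499. The part of this bright end in their differences was not tested, so these do not show that muscle RNA was unchanged. Ckm differed by -0.15 ± 0.21 in CR+EX against AL+EX, 0.23 ± 0.20 in CR against AL and 0.33 ± 0.20 in AL+EX against AL, and Acta1 by -0.21 ± 0.24, 0.004 ± 0.24 and 0.11 ± 0.24 in the same contrasts. Myh4 differed by -0.21 ± 0.22, -0.10 ± 0.22 and 0.04 ± 0.22. Of the slow and fast pairs, Tnnc1 was at -0.08 ± 0.37, 0.33 ± 0.36 and 0.42 ± 0.36, and Tnnc2 at -0.17 ± 0.21, -0.07 ± 0.21 and 0.06 ± 0.21. These intervals leave room for sizeable differences in the slow genes: the standard error of Myh7 was 0.60 in CR against AL. Across the 8 contrasts Tnnt1 lay between -0.73 and 0.46, Tnnt3 between -0.39 and 0.32 and Tnni2 between -0.36 and 0.28, none with an adjusted p below 0.432.

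Car3, Tpm1, Tpm2 and Des are also made by other cells of the gland, adipocytes in the case of Car3 and smooth muscle or myoepithelium for the rest. Tpm2, the beta tropomyosin, differed by -0.26 ± 0.16 in CR+EX against AL+EX and 0.39 ± 0.15 in AL+EX against AL. Its other probe sets gave -0.11, -0.35 and -0.44 in the first contrast and 0.39, 0.49 and 0.49 in the second. Des, desmin of the intermediate filaments, differed by -0.35 ± 0.25 and 0.61 ± 0.24, and its lowest signal, 1019, was in AL replicate 1. A dimmer second Des probe set gave -0.12 and -0.004, and its r with the one used was 0.175. Car3 differed by -0.09 ± 0.23 and -0.06 ± 0.22. The second Car3 probe set gave 0.09 and -0.10, and a second Tpm1 probe set had r = -0.466 with the one used. Of the 14 genes tested for smooth muscle and myoepithelium, 0 were called in the averaged diet contrast, in CR+EX against AL+EX or in CR against AL, with 3, 0 and 2 of the 14 at an unadjusted p below 0.05, against 23.9%, 15.2% and 14.9% of all genes.

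A further list held 58 other genes of skeletal muscle, of which 44 were measured and 43 tested. Over both wheel states 1 rose and 4 fell, to be read against the 8.75% of all genes that were called. Actc1, the actin of the heart that skeletal muscle makes during its development, rose 2.02-fold (1.01 ± 0.29, adjusted p = 0.0216). Its lowest, median and highest signals were 382.8, 3048 and 5193 in CR+EX, 434.7, 2041 and 3504 in CR, 766, 1094 and 1819 in AL+EX and 319.8, 810.8 and 1389 in AL glands. The restricted groups thus reached higher, and their lowest glands lay among the unrestricted ones. The difference was 1.95, 1.08, -0.63 and 1.97 in runs 1 to 4, and the call was lost without the high Gapdh arrays (0.82, adjusted p = 0.0984) or the arrays high in B cell genes (0.76, adjusted p = 0.266).

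Of 13 measured myogenic factors and satellite cell genes, 7 were tested. Only Myod1 among them was called in the averaged diet contrast, in which 8.75% of all genes were called. Myod1, the master regulator of muscle that binds E boxes, rose by 0.48 ± 0.15 (1.40-fold, adjusted p = 0.0362), at medians of 143.0 in CR+EX, 151.1 in CR, 110.3 in AL+EX and 110.0 in AL glands. Its difference was positive in all 4 runs (0.73, 0.23, 0.57 and 0.54), and the call was lost without the high Gapdh arrays (0.44, adjusted p = 0.108) or the arrays high in B cell genes (0.52, adjusted p = 0.106). Of the other myogenic factors, Myog had a median signal of 123.3 over all arrays, Myf5 19.1 and Myf6 496.2. Myf6, the brightest, averaged 8.92 in CR+EX, 8.86 in CR, 9.25 in AL+EX and 8.83 in AL glands on the log2 scale. Myog averaged 7.04, 7.07, 6.91 and 7.03 in the same order, and Myf5 4.83, 5.19, 5.34 and 4.81. Pearson r over the 37 arrays was taken with the mean of the tested members other than Car3, Tpm1, Tpm2 and Des. It was 0.131 for Myod1, 0.115 for Myog, 0.212 for Myf5 and 0.765 for Myf6. The rise of Myod1, at medians not far above the filter at 88.7, was thus in a signal that did not follow the muscle genes.

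The 4 further genes that fell with restriction came from the further list, chosen as skeletal muscle genes. Their tie to muscle is thus not a result, and the calls are to be read against the 8.75% of all genes. Hspb7, a small heat shock protein of striated muscle, fell by 0.86 ± 0.25 (adjusted p = 0.0244). Trim54, a ring finger protein of the sarcomere, fell by 0.61 ± 0.16 (adjusted p = 0.013), Mylk2, the skeletal myosin light chain kinase, by 0.56 ± 0.17 (adjusted p = 0.0372), and Cavin4, a caveolar protein of muscle named here because it completes the count, by 0.41 ± 0.13 (adjusted p = 0.0385). Each call was lost when the 15 arrays high in B cell genes were left out (adjusted p from 0.249 to 0.407). That fit kept 22 arrays, and the part of the smaller number in the lost calls was not tested. In run 1 the differences were 0.06 for Hspb7, 0.03 for Trim54, -0.14 for Mylk2 and 0.11 for Cavin4, and in runs 2 to 4 all were negative.

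Between the wheel groups 2 of the 43 fell in CR+EX against AL+EX, with 1.65% of all genes called. Trim54 fell by 1.00 ± 0.23 (adjusted p = 0.0151), with lowest, median and highest signals of 472.2, 772.7 and 1122 in CR+EX glands against 990.6, 1300 and 2811 in AL+EX glands. Only the top of the CR+EX range reached into that of AL+EX. Txlnb, a taxilin of muscle, fell by 0.68 ± 0.18 (adjusted p = 0.0401), with medians of 1032 in CR+EX and 1706 in AL+EX glands. Both differences were negative in all 4 runs, largest in run 3 (-2.28 for Trim54 and -1.44 for Txlnb). Over both wheel states Txlnb was at -0.35 ± 0.13 (adjusted p = 0.0736), and it passed with the run as a block (adjusted p = 0.048). In CR against AL they were -0.21 ± 0.22 and -0.02 ± 0.18, neither past the threshold. Both calls were lost when the arrays high in B cell genes were left out (-1.03, adjusted p = 0.0944 for Trim54, and -0.80, adjusted p = 0.103 for Txlnb).

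**Figure D5:**
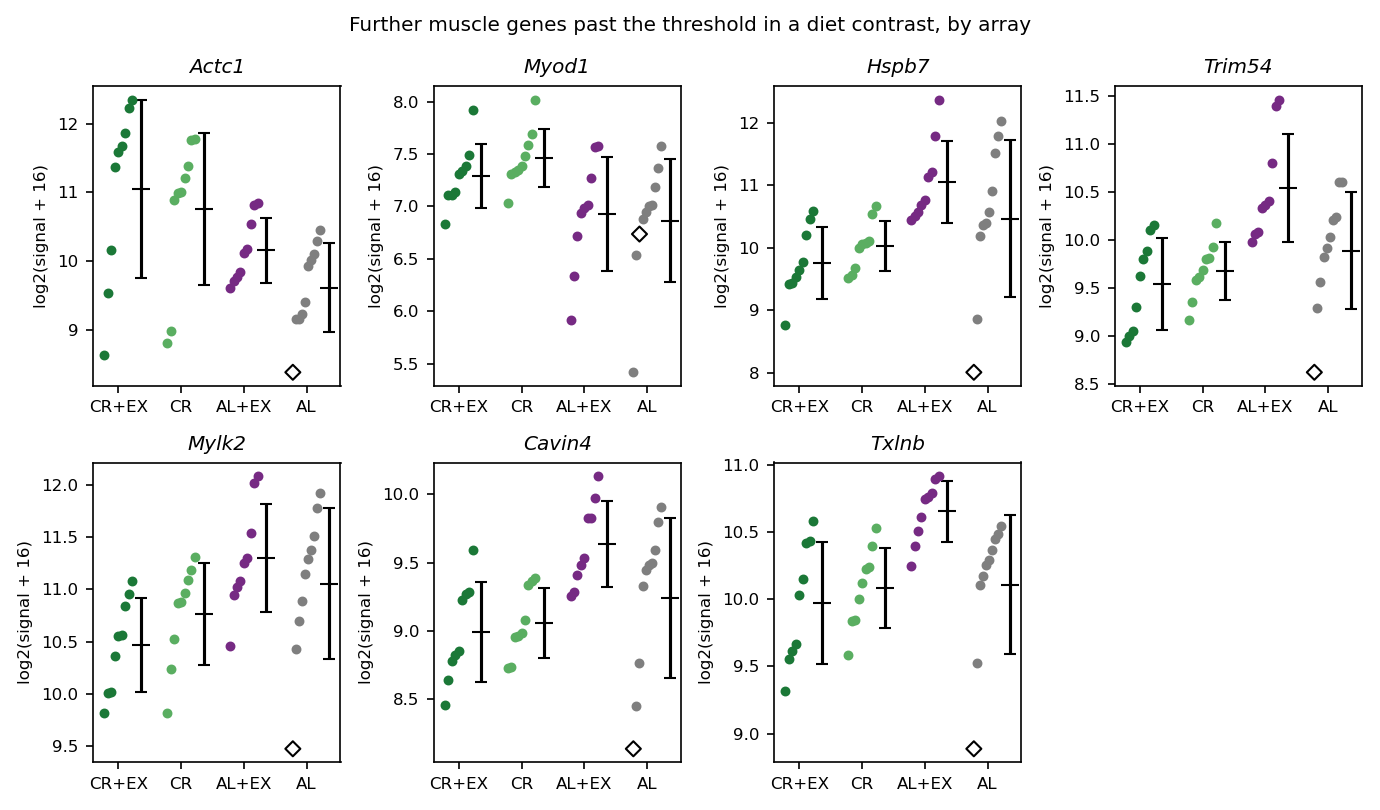
Each point is 1 gland, on the log2(signal + 16) scale, for the 7 genes of the further muscle and myogenic lists that passed in a diet contrast, with mean and SD beside each group and AL replicate 1 as a diamond. Actc1 and Myod1 are higher in CR+EX and CR glands, and the other 5 genes are highest in AL+EX glands, with AL replicate 1 lowest among AL glands in all but Myod1.

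Levels of genes listed for other tissues are set beside these groups. The summed signal of the 18 luminal genes had medians of 19874 in CR+EX, 22284 in CR, 24175 in AL+EX and 32866 in AL glands, and single glands of these groups spanned 14512–30267, 5722–30373, 9748–42346 and 8107–41250. The 13 adipocyte genes had medians of 134948, 151820, 119408 and 130615 in the same order. The 10 heart genes had medians of 1040, 1040, 1045 and 1076, with a range over all arrays of 677 to 1426. In the averaged diet contrast, to be read against the 8.75% of all genes called, 2 of 16 tested luminal genes fell and 3 of 13 adipocyte genes rose. The luminal ones were Cd24a (-0.71 ± 0.15, adjusted p = 0.00239) and Wfdc2 (-0.67 ± 0.21, adjusted p = 0.041). The adipocyte ones were Retn, the hormone resistin (0.64 ± 0.19, adjusted p = 0.0331), Rbp4, a retinol carrier (0.49 ± 0.16, adjusted p = 0.042), and Dgat2, an enzyme of triglyceride synthesis (0.41 ± 0.11, adjusted p = 0.0143), which also rose in CR+EX against AL+EX (0.62 ± 0.16, adjusted p = 0.027). Lep, the adipocyte hormone leptin, fell by 1.39 ± 0.38 (adjusted p = 0.0182). Summed signals of 8 brown fat genes had medians of 35527 in CR+EX, 34728 in CR, 27321 in AL+EX and 33126 in AL glands. The 6 tendon and fascia genes had 616, 538, 532 and 442, with 4 of the 6 below the filter. Pearson r of list means with the mean of tested members other than Car3, Tpm1, Tpm2 and Des was taken over all arrays. It was 0.586 for tendon and fascia, 0.44 for B lymphocytes and 0.385 for brown fat. For luminal, adipocyte and heart genes it was -0.452, -0.325 and -0.072. The part of other tissues in the muscle differences was not tested.

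The calls in the next lists, all short, are to be read against the 8.75% of all genes called in the averaged diet contrast. Of 10 tested genes listed for muscle wasting and the response to exercise, 2 rose in that contrast: Angptl4, an inhibitor of lipoprotein lipase (0.39 ± 0.12, adjusted p = 0.0351), and Ucp3, a mitochondrial uncoupling protein of muscle (0.34 ± 0.09, adjusted p = 0.0161). Of 5 tested nerve genes, Pmp22, a myelin protein, rose by 0.41 ± 0.11 (adjusted p = 0.018), and of 2 tested red blood cell genes, Alas2, an enzyme of heme synthesis, rose by 0.67 ± 0.19 (adjusted p = 0.0206).

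The genes most like the muscle members, by Pearson r over 37 arrays with the mean log2 value of the tested members other than Car3, Tpm1, Tpm2 and Des, were Adssl1, the muscle form of an enzyme of AMP synthesis (r = 0.898), Sh3bgr (0.879), Cap2 (0.847), Pfkm, the muscle phosphofructokinase (0.834), Pdlim3 (0.827), Nrap (0.825), Smarcd3 (0.823), Ckmt2, the mitochondrial creatine kinase of muscle (0.823), Slc25a4 (0.821) and Pdlim7 (0.813). With values centred on the run, r was 0.798 to 0.935 for these 10. The genes most like the slow fibre mean had lower r: Myoz2, a Z disc protein of slow fibres (0.623), Casq2, the calsequestrin of heart and slow fibres (0.611), and Dusp1, a phosphatase (0.602).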

How the data were processed

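The values were Affymetrix signal intensities on a linear scale, as deposited in the series' value table, 1 column for each of the 37 arrays. GCOS, version 1, is listed in the submitters' processing notes, with no algorithm for the signal stated in the sources used here. The mean after trimming 2% of values at each end was 500.16 to 500.23 on every array, so the deposited values had already been scaled and were not scaled again. Analyses ran on log2(signal + 16), a scale that understates changes of dim genes. Probe sets were named through the platform table, checked by Entrez gene ID: of 22690 probe sets, 20380 named 1 gene, 691 several and 1555 none, and 64 were controls. Of the 12393 genes, the dimmest 25% (mean log2 under 6.71) were left out.

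Group means were fitted to all 37 arrays with limma 3.58.1 in R 4.3.3 (33 residual degrees of freedom, variances trended on signal). The 8 contrasts were two-sided, and p-values were adjusted over the 9295 genes with a threshold of 0.05. Replicates were numbered in accession order within a group. Each array is 1 animal, and the number of arrays limits the precision. A difference is the first group named minus the second, and ± is the standard error of the fit unless SD is written. The run of animal numbers was tried as a block. The members and lists were chosen with earlier results of these data known. Named genes followed a rule: members past the threshold, the 4 largest differences each way in the averaged contrasts, the brightest and the widest member of each role, Ckm, Acta1, Myh4, Myh7, the troponins, Car3, Tpm1, Tpm2 and Des, called genes of the lists (up to 4 a list and contrast), and the 10 genes most like the members. Myh1, Myh2, Myot, Actn2, Cacna1s and Cavin4 were named after their values were seen. Other alternatives were another pseudocount, filters, normalizations, array weights, and leaving out each array or the arrays with a high Gapdh ratio or high B lymphocyte genes. Protein sequences were not used here.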

Additional observations from a re-analysis of the deposited data

Results flagged for a closer look

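In 17 of the 164 combinations of a member and a group, 1 gland lay far from the others of its group by Dixon's test, which flags about 1 in 20 groups by chance. AL replicate 1 was the low gland in 11 of them, with log2 values of 12.207 for Actn3, 12.688 for Mylpf, 12.578 for Tpm1, 11.495 for Tpm2, 13.837 for Atp2a1, 7.752 for Cacng1, 10.554 for Ldb3, 11.436 for Myoz1, 12.294 for Eno3, 10.053 for Pgam2 and 10.321 for Trdn. The nearest other AL gland was at 13.773 for Actn3 and 12.54 for Trdn. CR+EX replicate 7 was low in Myl3 (5.75) and Cacng1 (8.422), AL+EX replicate 1 in Tnnt1 (4.878) and CR replicate 9 in Myot (11.975). The 2 glands that stood out on the high side were CR replicate 5 in Mylpf (14.493) and CR+EX replicate 8 in Tnnt3 (14.588).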

How the results depend on the processing

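The number of members called in the averaged diet contrast, 1, was 2 after quantile normalization and with array weights, 3 with the run as a block and with the block after quantile normalization, 4 without the arrays with a high Gapdh ratio, 7 with the block and without those arrays, and 0 with the arrays high in B cell genes left out. Over single arrays left out it was 1 to 4: 4 without AL 1, and 2 without AL+EX 3, 5 or 9, CR 5 or CR+EX 1. In CR against AL, 1 member became 0 without a filter on low signals, without the trend in the variance, and with the arrays high in B cell genes or in the Gapdh ratio left out. Over single arrays it was 0 to 1, and 0 without AL 1, 2, 4, 7 or 8, AL+EX 4, CR 3 to 9, or CR+EX 1 or 6. In CR+EX against AL+EX, 0 became 1 with the block, 2 without the high Gapdh arrays, 2 with the block after quantile normalization, 3 with the block and without those arrays, and 0 to 2 over single arrays (2 without AL 1, 1 without AL+EX 5). In CR+EX against AL, 0 became 1 with the block, with and without quantile normalization. The counts in the other 4 contrasts stayed at 0 under all alternatives run. The combined settings were chosen after seeing the data. The share of all genes called under each alternative is not given here, so these counts are not results about the members in particular. The count of members that correlate with Ckm, 32 of 40, was 20 without the 2 farthest arrays. That with Mb, 37, was 24 without its 2 farthest arrays, and that with Tnnc1, 7, was 11 after quantile normalization. The averaged diet difference turned its sign within a single run for Actc1 (-0.63, run 3), Cavin4 (0.11), Hspb7 (0.058), Trim54 (0.034) and Txlnb (0.16, all run 1), and the cause was not tested. No paired analysis was possible because the labels give each animal its own number, which no other group shares. The standard errors of the slow genes were wide, so small differences in them were not detectable on these arrays.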
